A study of Mus musculus with 10 samples.

Results

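The genes described here are 10 Eph receptors and ephrins that are known for mapping axons onto the tectum: Epha3, Epha4, Epha5, Epha7, Efna2, Efna5, Ephb1, Ephb2, Efnb1 and Efnb2. They were chosen by name, as a list of mapping genes, at a time when earlier results of these data were known. All 10 of them were found among the 30935 Entrez gene IDs counted. RNA was taken from whole midbrains of mouse embryos at embryonic day 14.5. A wild-type group (Rbfox1 +/+) and a group homozygous for a deletion in the Rbfox1 locus (Rbfox1 ΔHAR.321/ΔHAR.321) were compared, with 5 libraries each, described as independent biological samples. HAR.321 is a human accelerated region: its sequence was kept in most vertebrates but diverged in humans. Rbfox1 encodes a neuronal splicing factor. The labels name no other allele, no Cre and no treatment in either group. How many founder lines or litters the embryos came from is not given in the sources used here, so p-values measure the spread between these samples.

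Eph receptors are tyrosine kinases at the cell surface, and ephrins are their ligands, which are also bound to the membrane. A growing axon that meets a ligand on another cell usually turns away or branches, depending on the pair and the dose. Ephrin-A ligands are held by a lipid anchor and bind mostly EphA receptors. Ephrin-B ligands cross the membrane, can signal into the cell that carries them, and bind EphB receptors and also EphA4. In the tectum, the dorsal midbrain that receives the retina, ephrin-A2 and ephrin-A5 are graded along the anterior to posterior axis, and they sort retinal axons by their EphA level. EphB receptors and ephrin-B ligands serve the other axis. The counts below are of the whole dissected midbrain, so gradients were not measured, and fewer cells of a type cannot be told apart from less RNA per cell.

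The libraries held 16246892 to 20255728 counts. Levels are given as CPM, counts divided by a library total that was scaled by TMM. The whole set of genes was tested, and 9 of 15288 passed edgeR's quasi-likelihood test at a Benjamini-Hochberg adjusted p of 0.05 (0.0589%). The number ranged from 0 to 357 when single libraries were left out (357 without deletion 4 and 88 without wild-type 2). Rbfox1 itself stood at 144, 166, 153, 140.4 and 140.5 CPM in wild-type 1, 2, 4, 5 and 6, and at 155, 154, 147, 168 and 181 CPM in deletion 2, 3, 4, 5 and 6. These levels overlapped (log2 fold change 0.11, SE 0.07, edgeR adjusted p = 0.606), and they are no check of the labels, because the position of the deleted element relative to the counted exons was not examined here. All 8 listed midbrain markers passed the filter on low counts, among them Otx2, En1, En2 and Pax7. Of 6 hindbrain markers (5 Hox genes and Egr2) 0 passed that filter, and their summed level was at most 0.894 CPM. Of 6 forebrain markers 3 passed it (Emx1, Emx2 and Six3). The summed level of the 6 was 83.2 to 121 CPM in wild-type and 88.6 to 115 CPM in deletion libraries. Six3 had a log2 fold change of 0.26 (SE 0.11, edgeR adjusted p = 0.411). It alone of the 3 had an unadjusted p under 0.05 (10.5% of all genes). How much forebrain tissue the libraries held was not tested.

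Wild-type 5, deletion 2 and deletion 3 stood apart in genes of the cerebellum and its border with the midbrain, which lie next to the tectum. Skor2, a marker of developing Purkinje cells, was at 19.7, 13.6 and 18.9 CPM in these 3 libraries and at 1.60 to 5.45 CPM in the other 7. The summed level of 6 such genes (Skor2, Pax2, Ptf1a, Atoh1, Pcp2 and Gbx2, chosen after their values were seen) was 34.1, 31.0 and 36.0 CPM in the 3 libraries. Elsewhere it ran from 5.80 to 11.7 CPM. The members' fold changes, the counts over the gene lists and the tested correlations are given below with and without them, and the genes most like each member with all 10 libraries.

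No member passed the test between the groups. 0 of 10 members passed edgeR's test (background 0.0589%), DESeq2 (2.36% of genes called) or limma-voom (0.0589%). 7 of the 10 had a higher mean in the deletion group, where 49.3% of all tested genes had a log2 fold change above 0. The median log2 fold change of the members was 0.10, against -0.0024 over all tested genes. With each library corrected for a trend with transcript length the members' median was 0.05, and for length and GC content 0.06. With the replicate number as a block it was 0.02. The median over all genes is not given for these fits. 1 of 10, Ephb1, had an unadjusted p under 0.05 and was higher, and 0 were lower at that p. Of all genes 10.5% had such a p, 5.62% higher and 4.92% lower. The groups overlapped for all 10, while they did not overlap for 2.49% of all tested genes. With the 3 libraries above left out, 6 of 10 had a higher mean in the deletion group (47.2% of all genes) and the median was 0.03. Then 2 of 10, Ephb1 and Ephb2, had an unadjusted p under 0.05 in edgeR (6.08% of all genes), and 0 passed after adjustment.

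**Figure D1:**
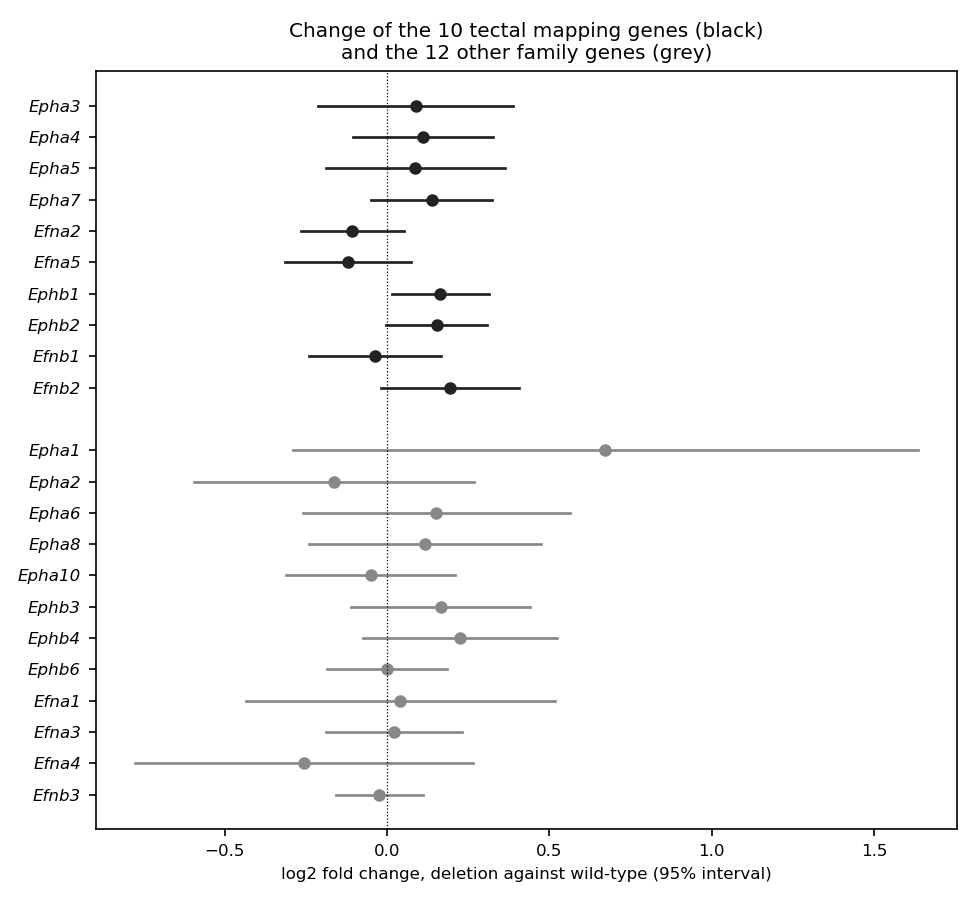
Log2 fold change of each gene, deletion against wild-type (horizontal axis), with its 95% interval from edgeR, for the 10 tectal mapping genes (black) and the 12 other genes of the family (grey). The members lie between -0.12 for Efna5 and 0.19 for Efnb2, and of the 22 intervals only that of Ephb1 leaves out 0.

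The promoter sequences of 3 members are shown first: Epha4 and Efnb2, whose levels went together over the libraries, and Ephb1, the member with the smallest p. No test below used these sequences. Each is the 250 bases before the annotated start, 5′ to 3′ on the gene's strand, from RefSeq on GRCm38.p6 (the counts were made on mm39). Capitals mark matches to the GC box GGGCGG or the TATA box TATAAA on either strand, and no 2 matches overlapped.
Epha4: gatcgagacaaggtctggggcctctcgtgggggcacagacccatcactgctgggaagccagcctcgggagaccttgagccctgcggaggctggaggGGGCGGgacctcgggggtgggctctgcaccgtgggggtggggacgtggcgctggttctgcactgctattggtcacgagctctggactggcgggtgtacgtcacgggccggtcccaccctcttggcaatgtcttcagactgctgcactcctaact
Efnb2: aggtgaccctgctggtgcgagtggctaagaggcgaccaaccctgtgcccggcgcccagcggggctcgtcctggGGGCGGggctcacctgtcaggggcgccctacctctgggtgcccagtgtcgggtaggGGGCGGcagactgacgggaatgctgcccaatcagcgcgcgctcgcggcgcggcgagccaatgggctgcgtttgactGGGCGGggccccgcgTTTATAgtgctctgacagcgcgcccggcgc
Ephb1: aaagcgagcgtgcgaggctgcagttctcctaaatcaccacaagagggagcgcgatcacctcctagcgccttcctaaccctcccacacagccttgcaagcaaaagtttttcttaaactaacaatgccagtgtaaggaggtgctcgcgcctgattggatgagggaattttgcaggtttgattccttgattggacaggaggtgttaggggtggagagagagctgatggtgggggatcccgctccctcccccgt

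The Epha4 window (chr1:77515089-77515338, minus strand) held 1 GC box and no TATA box. The Efnb2 window (chr8:8661243-8661492, minus strand) held 3 GC boxes and 1 TATA box. The Ephb1 window (chr9:102354694-102354943, minus strand) held neither. Of 32817 promoter windows of this length, 32.7% held the GC box and 12.4% the TATA box. All 10 members had at least 1 entry, 6 of them with a GC box and 1 with a TATA box. The TAATTA core that many homeodomain proteins bind, searched on both strands, was in 1 member (Epha5) and in 4.85% of all windows. CpG pairs numbered 14 in the Epha4 window, 27 in that of Efnb2 and 10 in that of Ephb1, with a median of 6 over all windows. These are matches of letters and say nothing of binding.

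The ephrin-A ligands of the tectum, Efna2 and Efna5, were both lower in mean in the deletion group, by less than the spread between libraries. Efna2, the ligand that rises toward the posterior tectum, was at 86.7, 93.0, 75.5, 84.3 and 79.5 CPM in wild-type 1, 2, 4, 5 and 6. In deletion 2, 3, 4, 5 and 6 it was at 65.8, 82.5, 83.0, 82.9 and 74.6 CPM. No deletion library reached the wild-type mean, but deletion 3, 4 and 5 were inside the wild-type range. Wild-type libraries averaged 83.8 ± 6.72 CPM and deletion libraries 77.8 ± 7.55 CPM (SD, n = 5 each). The log2 fold change was -0.11, with an SE of 0.08 and a 95% interval from -0.27 to 0.05 (edgeR adjusted p = 0.671). Deletion 2 was the lowest library, and without it the log2 fold change was -0.06. Leaving out the 3 libraries high in cerebellar genes gave -0.07 (SE 0.09, adjusted p = 0.955).

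Efna5, which overlaps with Efna2 in the tectum, was at 67.5, 48.2, 52.8, 62.9 and 58.7 CPM in the wild-type libraries. It was at 46.6, 48.5, 56.9, 61.5 and 53.3 CPM in the deletion libraries, in the same order of numbers. The highest library was wild-type 1 and the lowest deletion 2, and the ranges overlapped over most of their length. Its log2 fold change was -0.12 (SE 0.09, 95% interval -0.31 to 0.07, edgeR adjusted p = 0.707). Without the 3 libraries high in cerebellar genes it was 0.0037 (adjusted p = 0.997).

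The transcription factors En1 and En2, which set posterior midbrain identity and raise ephrin-A in the tectum, were compared with these ligands over the 10 libraries. En1 averaged 72.4 ± 13.7 CPM over wild-type and 64.8 ± 8.56 CPM over deletion libraries (SD, n = 5), and En2 151 ± 27.9 and 139 ± 21.6 CPM. Neither passed edgeR's test (adjusted p = 0.683 and 0.803). Of 5 relations none passed a two-sided permutation test. Efna2 with Efna5 gave Pearson's r = 0.38 (permutation p = 0.280, adjusted p = 0.717) and Spearman's rho = 0.43 (permutation p = 0.218, adjusted p = 0.524). Efna2 with En1 gave r = -0.37 (permutation p = 0.302, adjusted p = 0.717) and rho = -0.36 (permutation p = 0.313, adjusted p = 0.524), and Efna5 with En2 gave r = 0.28 (permutation p = 0.430, adjusted p = 0.717) and rho = 0.36 (permutation p = 0.314, adjusted p = 0.524). Efna2 with En2 gave r = 0.06 (permutation p = 0.870, adjusted p = 0.994) and rho = 0.12 (permutation p = 0.761, adjusted p = 0.761), and Efna5 with En1 gave r = 0.00 (permutation p = 0.994, adjusted p = 0.994) and rho = 0.12 (permutation p = 0.760, adjusted p = 0.761). Without the 2 libraries farthest from the median of the ligand on the x axis, r was 0.61, -0.11, 0.37, 0.55 and 0.29 in the order given. Efna2 with Efna5 rested on single libraries: r was 0.76 without wild-type 2 (permutation p = 0.0142, adjusted p = 0.0711) and 0.04 without deletion 2 (permutation p = 0.908, adjusted p = 0.908). Among the 7 libraries low in cerebellar genes r was 0.01, -0.42, 0.58, 0.03 and 0.13 in the same order, with none passing (lowest permutation p = 0.165, adjusted p = 0.827). Groups of 5 libraries are too small for a correlation here, so none is given within them.

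The EphA receptors were higher in mean in the deletion group, all 4 within the spread between libraries. Epha4 encodes an EphA receptor that binds ligands of both classes. It was at 94.98, 104, 97.6, 137 and 118 CPM in wild-type 1, 2, 4, 5 and 6, and at 133, 138, 99.4, 112 and 113 CPM in deletion 2, 3, 4, 5 and 6. The 3 highest libraries were wild-type 5, deletion 2 and deletion 3, the same 3 that were high in cerebellar genes, and they came from both groups. The log2 fold change was 0.11 (SE 0.10, 95% interval -0.11 to 0.33, edgeR adjusted p = 0.772), and without those libraries 0.06 (SE 0.09, adjusted p = 0.963). With the log2 summed level of the 6 cerebellar genes as a covariate, the log2 fold change of Epha4 was 0.03 (SE 0.06, edgeR adjusted p = 0.899). That sum includes Skor2, the gene most like Epha4 (below). Whether these libraries account for the Epha4 level was not tested.

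Epha3, a receptor graded in retinal axons of birds and low in the mouse retina, varied in an uneven way. It stayed between 29.5 and 32.7 CPM in the 5 wild-type libraries. In deletion 2, 3, 4, 5 and 6 it was at 46.7, 35.2, 22.9, 25.7 and 33.0 CPM, so the deletion libraries lay both above and below all wild-type ones. The coefficient of variation was 4.24% over wild-type and 28.5% over deletion libraries, a difference in spread that was not tested. Its log2 fold change of 0.09 (SE 0.14, edgeR adjusted p = 0.888) turned to -0.08 without deletion 2 and to -0.18 without the 3 libraries high in cerebellar genes (adjusted p = 0.900).

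Epha5 and Epha7 are EphA receptors whose ligands include ephrin-A2 and ephrin-A5. Epha5 ranged from 84.9 to 114 CPM (median 109) in the wild-type and from 78.0 to 127 CPM (median 106) in the deletion group. Its log2 fold change was 0.09 (SE 0.13, edgeR adjusted p = 0.876), and -0.06 without the 3 libraries. Epha7 ranged from 74.6 to 105 CPM (median 92.2) in the wild-type and from 85.9 to 115 CPM (median 101) in the deletion group. The wild-type mean was exceeded in 4 of 5 deletion libraries, and the log2 fold change was 0.14 (SE 0.09, 95% interval -0.05 to 0.32, edgeR adjusted p = 0.641), and 0.05 without the 3 libraries.

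**Figure D2:**
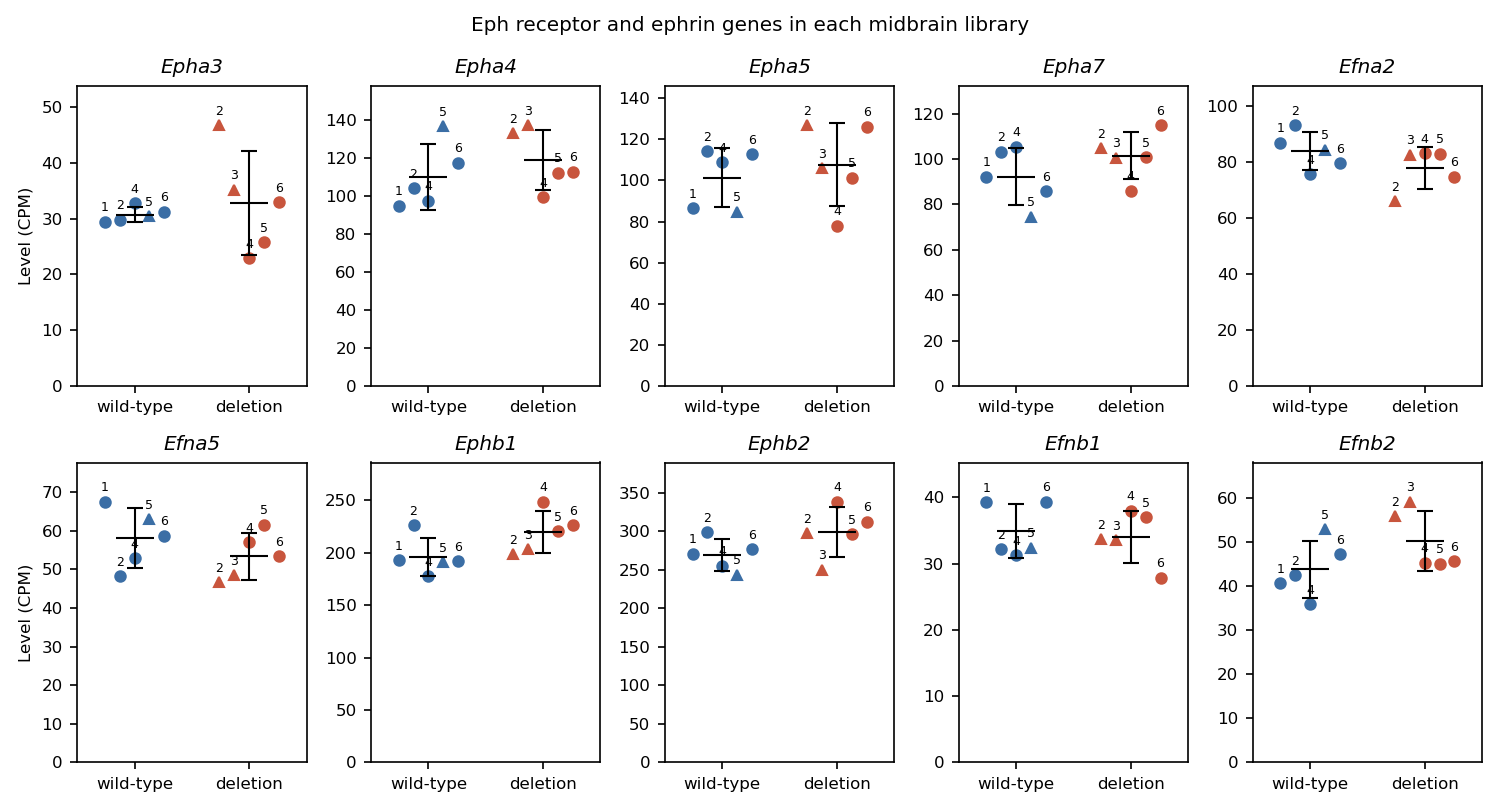
Level of each of the 10 genes in CPM (vertical axes, from 0) in the 5 wild-type (blue) and 5 deletion (red) libraries, numbered as in the labels, with bars for the mean and SD. Triangles mark the 3 libraries over 10 CPM of Skor2, which are the 3 highest for Epha4 and for Efnb2. The groups overlap in every panel.

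The EphB receptors came closest to a difference. Ephb1 was at 193, 226, 178, 191 and 192 CPM in wild-type 1, 2, 4, 5 and 6, and at 198, 203, 249, 220.3 and 226 CPM in deletion 2, 3, 4, 5 and 6. Every deletion library was above the wild-type mean and above 4 of the 5 wild-type libraries, while wild-type 2 stood among the higher deletion libraries. Wild-type libraries averaged 196 CPM and deletion libraries 219 CPM (n = 5 each), with coefficients of variation of 9.18% and 9.14%. The log2 fold change was 0.16, with an SE of 0.07 and a 95% interval from 0.01 to 0.31. It did not pass in edgeR (unadjusted p = 0.0326, adjusted p = 0.415). With single libraries left out the log2 fold change ran from 0.12 without deletion 4 (SE 0.06, adjusted p = 0.377) to 0.21 without wild-type 2 (SE 0.07, adjusted p = 0.135). The unadjusted p stayed under 0.05 in 3 of these 10 fits, and the number of members with such a p ran from 0 to 2 over them. Over all genes that number ran from 1262 of 15429 (without wild-type 5) to 2432 of 15433 (without deletion 4). With the level of Y-linked genes as a covariate 3 members had such a p in edgeR: Ephb1, Ephb2 and Efnb2. In that fit 1745 of 15288 genes had one, and no member passed after adjustment. Without the 3 libraries high in cerebellar genes the log2 fold change of Ephb1 was 0.23 (SE 0.09, adjusted p = 0.776).

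Ephb2 was the most counted member, with 4480 to 6825 reads per library. Its wild-type levels were 271, 299, 255, 243 and 277 CPM, and its deletion levels 297.2, 250.3, 338, 296.6 and 312 CPM. The wild-type mean was exceeded in 4 of 5 deletion libraries, deletion 4 was the highest of all, and deletion 3 lay inside the lower part of the wild-type range. The log2 fold change was 0.15 (SE 0.07, 95% interval -0.0027 to 0.31, edgeR adjusted p = 0.486). Its longest annotated transcript of 10902 bases is the longest of the 10, and after each library was corrected for a trend with transcript length and GC content the log2 fold change was 0.03 (SE 0.06, adjusted p = 0.928). In that fit Ephb1 was at 0.11 (SE 0.05, adjusted p = 0.501). Correcting for length but not GC content put Ephb2 at 0.08 (SE 0.08, adjusted p = 0.864) and Ephb1 at 0.14 (SE 0.07, adjusted p = 0.661). Leaving out the 3 libraries high in cerebellar genes gave 0.19 for Ephb2 (SE 0.09, adjusted p = 0.798).

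The ephrin-B ligands had log2 fold changes of opposite sign, neither past the test. Efnb2, a ligand of EphB receptors and of EphA4 that arteries also express, was at 40.7, 42.6, 36.0, 53.0 and 47.3 CPM in the wild-type libraries and at 55.9, 59.3, 45.4, 45.2 and 45.8 CPM in the deletion libraries. The 3 highest libraries were again deletion 3, deletion 2 and wild-type 5. The wild-type mean of 43.9 CPM was below each deletion library. Its log2 fold change of 0.19 (SE 0.10, 95% interval -0.02 to 0.41) was the largest of the 10 and did not pass (edgeR adjusted p = 0.534), and without the 3 libraries it was 0.12 (SE 0.11, adjusted p = 0.925). The summed level of 8 endothelial markers ran from 149 to 182 CPM in wild-type libraries and from 150.04 to 179 CPM in deletion libraries.

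Efnb1, the X-linked ephrin-B gene, ranged from 31.3 to 39.4 CPM (median 32.4) in the wild-type and from 27.9 to 38.0 CPM (median 33.7) in the deletion group. The log2 fold change of Efnb1 was -0.04 (SE 0.10, 95% interval -0.24 to 0.17, edgeR adjusted p = 0.942), the smallest of the members. The Y-linked genes were on in 2 wild-type and 3 deletion libraries, and with their level as a covariate the value was -0.06 (SE 0.10, adjusted p = 0.887). It was also -0.06 without the 3 libraries high in cerebellar genes (SE 0.13, adjusted p = 0.970).

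**Figure D3:**
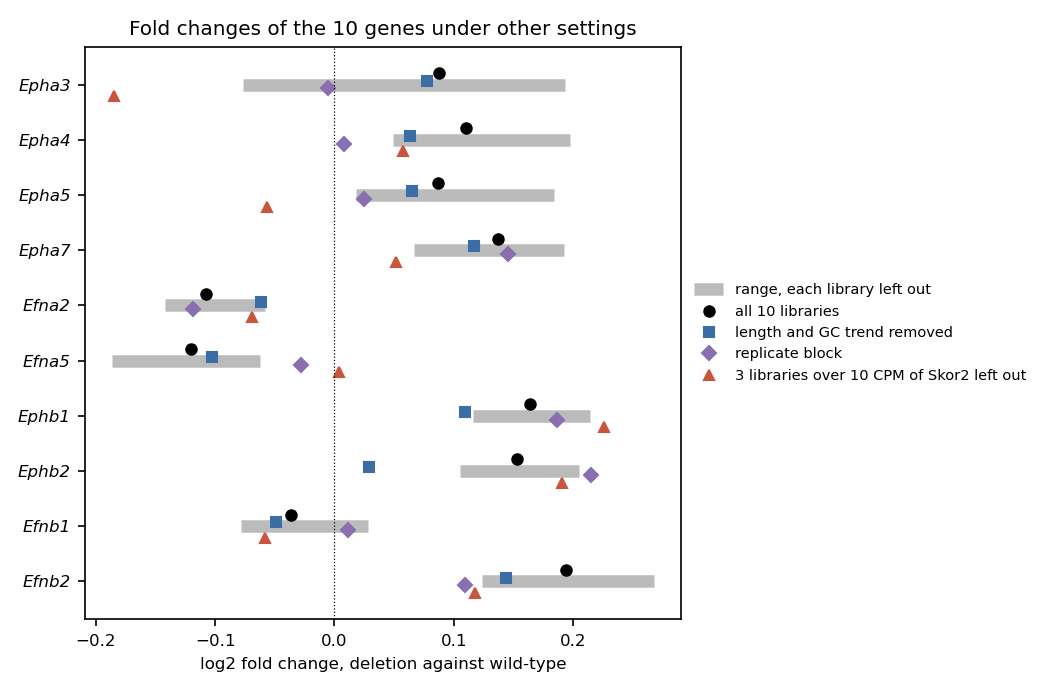
Log2 fold change of each member, deletion against wild-type (horizontal axis), over all 10 libraries (black) and under 3 other settings, with a grey bar for the range when each library was left out in turn. Ephb1, Ephb2, Efnb2, Epha7 and Epha4 stay above 0 and Efna2 below 0 under the settings drawn, and Epha3, Epha5, Efna5 and Efnb1 cross 0.

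Levels of different genes were compared per length, as CPM per kilobase of the longest annotated transcript. Ephb1 and Efna2 led the members in the wild-type at 42.0 ± 3.85 and 39.3 ± 3.15 CPM per kb (SD, n = 5), and Ephb1 was the higher in 5 of 5 wild-type libraries though the ranges overlapped. Ephb2 followed at 24.7 ± 1.94 and Epha4 at 17.4 ± 2.74 CPM per kb, both apart from the next higher gene in every wild-type library. Efna5, Epha5 and Epha7 lay at 14.4 ± 1.91, 13.8 ± 1.98 and 13.7 ± 1.88 CPM per kb and could not be ordered: each neighbour was the higher in only 2 or 3 of 5 wild-type libraries. Efnb1 and Efnb2 came next at 10.7 ± 1.24 and 9.17 ± 1.36 CPM per kb, in that order in 4 of 5 wild-type and 2 of 5 deletion libraries. Epha3 was lowest, at 5.42 ± 0.23 CPM per kb, below Efnb2 in all 10 libraries. In the deletion group the first 4 places and the last were held by the same genes. With the median transcript length in place of the longest, Ephb2 came first at 87.2 CPM per kb and Ephb1 second at 80.1.

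Among all 22 Eph and ephrin genes, members held 7 of the first 8 places by the longest transcript, and Efnb3, an ephrin-B ligand that is no member, was the highest at 62.2 ± 5.26 CPM per kb in the wild-type. By the median transcript length members held 5 of the first 8 places, and Efnb3 came after Ephb2, Ephb1 and Ephb6 (69.5 CPM per kb). Efnb3 differed little between the groups (log2 fold change -0.02, SE 0.06). The 12 other family genes were all tested, and 0 passed in edgeR (0 had an unadjusted p under 0.05, and 0 passed DESeq2 or limma-voom). 8 of 12 were higher in mean (49.3% of all genes were) and the median log2 fold change was 0.03. Without the 3 libraries high in cerebellar genes 7 of 12 were higher (47.2% of all genes) and the median was 0.05. The receptor genes Ephb4, of veins, and Ephb3 had values of 0.22 (SE 0.14) and 0.16 (SE 0.13), Epha8 and Epha6 0.12 (SE 0.16) and 0.15 (SE 0.20), and Epha10 and Ephb6, which lack an active kinase, -0.05 (SE 0.12) and 0.00 (SE 0.09). Epha2 had -0.16 (SE 0.21), and Epha1, at 0.51 CPM in the wild-type group, had 0.67 (SE 0.46). The ligands Efna1, Efna3 and Efna4 had 0.04 (SE 0.23), 0.02 (SE 0.10) and -0.26 (SE 0.25).

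**Figure D4:**
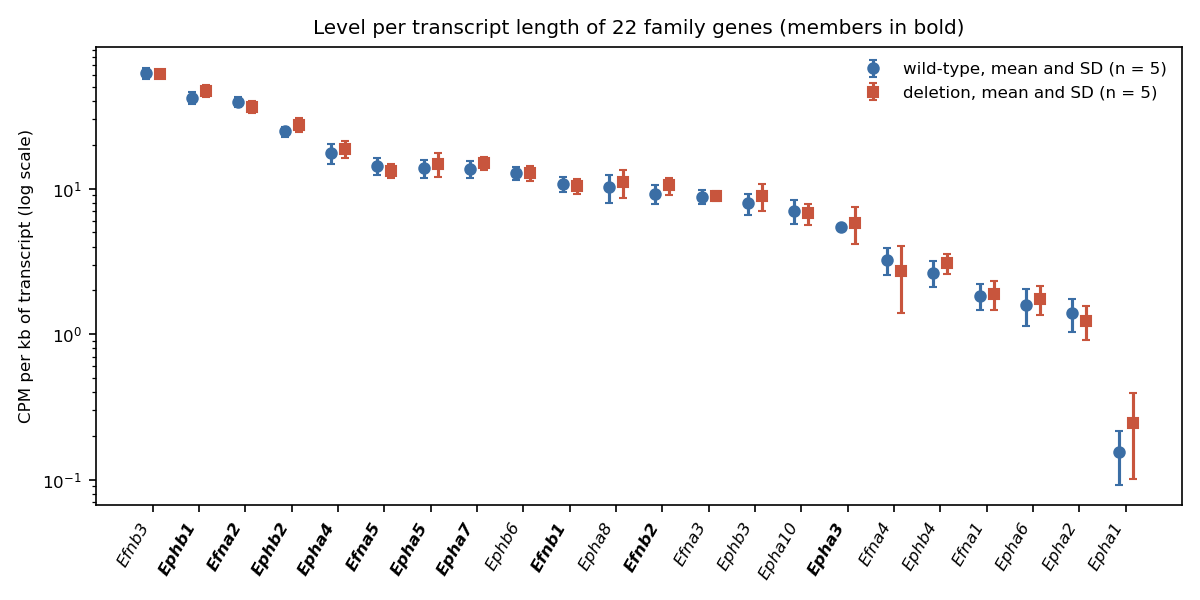
Mean and SD over 5 libraries of the level per kilobase of the longest transcript (log axis) for the 22 family genes, in order of the wild-type mean, with wild-type in blue and deletion in red. Members, in bold, run from 42.0 CPM per kb for Ephb1 to 5.42 for Epha3 in the wild-type.

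With all 10 libraries, 1 of 45 pairs of members varied together beyond a permutation test. Epha4 and Efnb2, a receptor and ligand that bind each other, gave Pearson's r = 0.92 (permutation p = 0.00015, adjusted p = 0.00675 over 45 pairs) and Spearman's rho = 0.94 (permutation p = 0.00014, adjusted p = 0.0063). Without the 2 libraries farthest from the Epha4 median, deletion 3 and wild-type 5, r was 0.88. The 3 libraries high in cerebellar genes were the 3 highest for both genes. They were picked by Skor2, the gene most like Epha4 (below), so their high Epha4 level is not independent of the choice. Among the other 7 libraries r was 0.74 (permutation p = 0.0470, adjusted p = 0.528) and rho 0.86 (permutation p = 0.0232, adjusted p = 0.349), which did not pass over the 45 pairs. Whether the cerebellar genes account for the relation was not tested.

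Ephb1 and Ephb2 came next (r = 0.84, permutation p = 0.00279, adjusted p = 0.0628, and rho = 0.82, permutation p = 0.00562, adjusted p = 0.126, over the 10 libraries), and without the 2 libraries farthest from the Ephb1 median r was 0.71. They did not pass over the 45 pairs. The highest levels of both were in deletion 4. Among the 7 libraries low in cerebellar genes r was 0.98 (permutation p = 0.00074, adjusted p = 0.0333) and rho 0.96 (permutation p = 0.00307, adjusted p = 0.0691), so that r passed over the 45 pairs and rho did not.

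**Figure D5:**
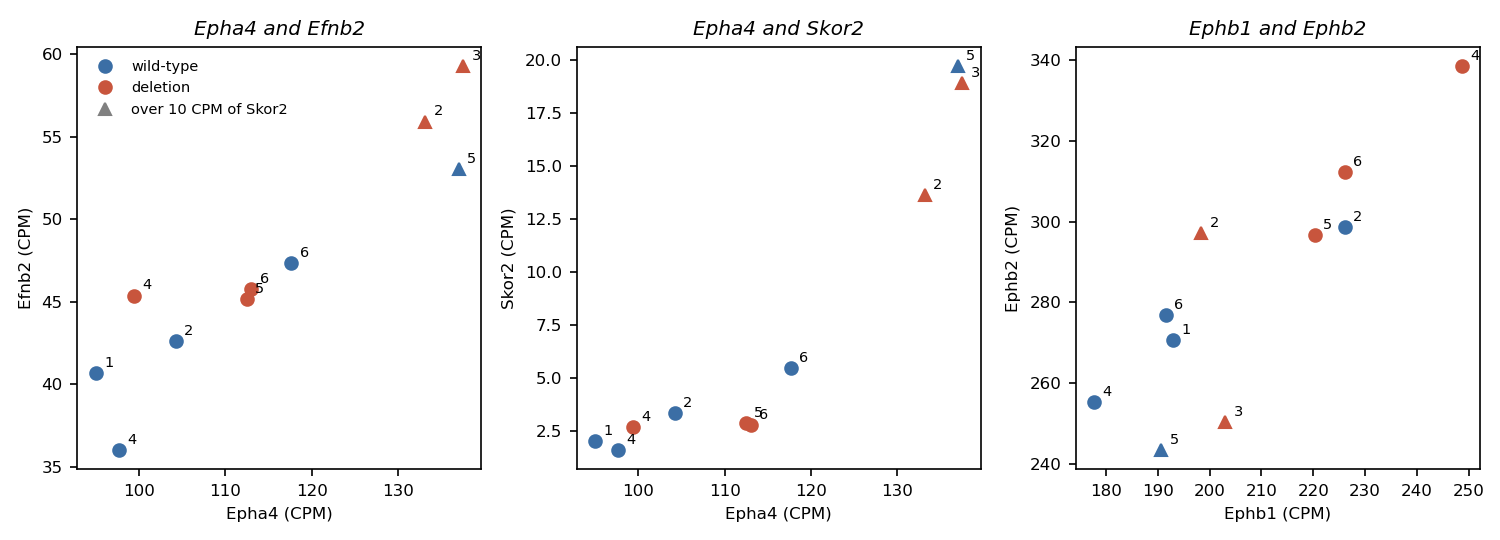
Levels in CPM of Epha4 against Efnb2, Epha4 against Skor2 and Ephb1 against Ephb2, with 1 point per library (wild-type blue, deletion red, numbered as in the labels). Triangles are the 3 libraries over 10 CPM of Skor2. They hold the highest Epha4 and Efnb2 levels in the first panel, and their place on the Skor2 axis follows from how they were picked.

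For each member the gene with the most similar pattern was sought among 11285 other genes with a mean of at least 5 CPM, by Pearson's r of log2 CPM over the 10 libraries. Being the highest of so many, these values are descriptions, and the libraries share their depth and dissection. The closest to Epha4 was Skor2 (r = 0.95), and the closest to Efnb2 was Nid1, a basement membrane gene (r = 0.98). Nid1 was at 49.7, 57.6 and 62.5 CPM in wild-type 5, deletion 2 and deletion 3, and at 32.1 to 45.3 CPM in the other libraries. Epha5 was closest to Atp1b1, a subunit of the sodium pump (r = 0.99). Efna2 was closest to Nos1ap, an adaptor of neuronal nitric oxide synthase (r = 0.96), and Epha3 to Cbln1, a secreted synapse organiser (r = 0.93). For Epha3 with Cbln1 Spearman's rho was 0.77, and Epha3 varied mostly among the deletion libraries. Efna5 was closest to the sialyltransferase gene St6gal1 (r = 0.92) and Epha7 to Gpd2 of mitochondrial glycerol phosphate oxidation (r = 0.95). Ephb1 was closest to Wdr6 (r = 0.95), Ephb2 to the phosphatase gene Dusp7 (r = 0.94) and Efnb1 to the chromatin remodeller gene Chd7 (r = 0.90).

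The genes through which Eph receptors act inside the cell were read from a list of 32 partners, all tested. In edgeR 0 passed in either direction, and 4 had an unadjusted p under 0.05 (10.5% of all genes). All 4 were higher in the deletion group (5.62% of all genes were higher at that p). With the length trend removed 2 of 32 had such a p in edgeR (1208 of all 15288 genes). DESeq2 and limma-voom called 0. 24 of 32 were higher in mean (49.3% of all genes were), with a median log2 fold change of 0.05. With the length trend removed 18 of 32 were higher (median 0.02), and with length and GC trends removed 22 of 32 (median 0.02). The share over all genes is not given for those 2 fits. Without the 3 libraries high in cerebellar genes 20 of 32 were higher (47.2% of all genes) and the median was 0.03. Then 2 had an unadjusted p under 0.05 (6.08% of all genes) and 0 passed in edgeR. Tiam1, an exchange factor for Rac downstream of Eph and ephrin-B, came first by p, with 49.9 ± 3.74 CPM in wild-type and 58.5 ± 3.29 CPM in deletion libraries. The log2 fold change was 0.23 (SE 0.07, edgeR adjusted p = 0.215). Its groups did not overlap, which held for 1 of the 32 partners and for 2.49% of all tested genes. After the correction for length and GC content the value for Tiam1 was 0.13 (SE 0.06, adjusted p = 0.508). It was 0.21 without the 3 libraries (SE 0.10, adjusted p = 0.816). Ptpro, a phosphatase that acts on EphA receptors, had 0.18 (SE 0.06, adjusted p = 0.283), Itsn1, an exchange factor for Cdc42 that binds EphB2, 0.14 (SE 0.06), and Kalrn, another exchange factor for Rac, 0.15 (SE 0.07).

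Of 16 genes that pattern the midbrain and tectum, 15 were tested and 0 passed in edgeR. In mean 7 were higher and 8 lower (49.3% of all genes were higher), with a median log2 fold change of -0.06. 1 had an unadjusted p under 0.05 (10.5% of all genes), and DESeq2 and limma-voom called 0. Without the 3 libraries high in cerebellar genes 6 of 15 were higher (47.2% of all genes) and the median was -0.0061. Then 2 had an unadjusted p under 0.05 (6.08% of all genes) and 0 passed in edgeR. The gene with the smallest p over all 10 libraries was Neo1, the receptor for the repulsive guidance molecule RGMa, with 210.2 ± 19.2 CPM in wild-type and 235 ± 9.09 CPM in deletion libraries. Its log2 fold change was 0.16 (SE 0.06, edgeR adjusted p = 0.357), and 0.15 without those 3 (SE 0.09, adjusted p = 0.872). After the correction for length and GC content it was 0.08 (SE 0.05, edgeR adjusted p = 0.608). Correcting for length alone gave 0.10 (SE 0.06, edgeR adjusted p = 0.713). Pax5, of the border between midbrain and hindbrain, had 0.25 (SE 0.12), and Wnt3, a guidance cue of the tectum's other axis, -0.20 (SE 0.12). En1 and En2, given above, had -0.16 (SE 0.12) and -0.13 (SE 0.13). Pax2, named after its value was seen, had 0.73 (SE 0.55), and its 3 highest libraries were deletion 3, wild-type 5 and deletion 2. Without these it had 0.60 (SE 0.33, adjusted p = 0.850).

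Markers of the cell types around these genes are given for the same libraries. The summed level of 8 neuron markers ran from 8205 to 8580.2 CPM over wild-type and from 7628 to 8968 CPM over deletion libraries. That of 8 radial glia and progenitor markers ran from 1177 to 1526 and from 1106 to 1570.4 CPM. Of these, 6 of 8 were lower in mean, where 49.3% of all genes were higher. None passed edgeR's test, and 1 had an unadjusted p under 0.05 (10.5% of all genes). Pericyte markers ran from 120.3 to 146 and from 119 to 148 CPM, and meningeal ones from 14.6 to 16.7 and from 13.2 to 20.1 CPM. Their part in the values of the members was not tested.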

How the data were processed

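RNA-seq counts of 10 midbrain libraries were analysed. The authors deposited 1 table of raw counts, whole numbers per Entrez gene ID, made with HISAT2 and featureCounts on mm39, per the submitters' processing notes. For the versions, the annotation, strandedness and reads with several matches, the sources used here give no setting. Without strand, overlapping antisense genes cannot be told apart. Columns were matched to samples by title.

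Symbols came from the RefSeq table for GRCm38.p6 (30648 of 30935 IDs, and IDs without one held 0.0116% of counts), and transcript lengths from GENCODE M21. edgeR 4.0.16 in R 4.3.3 was run on the whole table with filterByExpr, TMM, robust quasi-likelihood dispersions, the group alone in the design and Benjamini-Hochberg adjustment over 15288 genes. Log2 CPM used a prior count of 2, and correlations 100000 permutations. No 2 libraries of a group agreed within sampling noise (lowest chi-square per degree of freedom 5.81). The gene test was also run on simulated counts, which held no differences in dissection, sex or length trend between libraries. The changes added there were all larger than those of the members. That run therefore says nothing of changes as small as theirs, or of such differences between libraries.

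Named were all members and family genes, the 4 smallest p of the partner and patterning lists, En1, En2, Rbfox1 and the gene most like each member. Members and lists were chosen with earlier results of these data known. Alternatives were other scalings and filters, a replicate block, length and GC trends removed (spline with 4 degrees of freedom), a Y-linked covariate, a surrogate variable (sva 3.50.0), DESeq2 1.42.0, limma-voom 3.58.1 and leaving out libraries. Leaving out the 3 libraries over 10 CPM of Skor2 (for fits and correlations), the cerebellar covariate and the 45 pairs were added after the data were seen.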

Additional observations from a re-analysis of the deposited data

How the results depend on the processing

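No member passed under any of the 24 alternatives run for each, with the lowest adjusted p 0.135 (Ephb1 without wild-type 2). Ephb1, Ephb2, Efnb2, Epha7 and Efna2 kept their direction in all 24. Directions turned as follows. The replicate block gave Epha3 -0.0051 and Efnb1 0.011, and with length and GC trends removed as well Epha4 was -0.032. Without the 3 libraries high in cerebellar genes Epha3 was -0.18, Epha5 -0.056 and Efna5 0.0037, and with the cerebellar level as a covariate Epha3 was -0.0083. Members that kept their sign in that covariate fit included Epha4 at 0.031, Efnb2 at 0.12, and Ephb1 and Ephb2 both at 0.19. Leaving out single libraries moved Epha3 from -0.077 to 0.19 and Efnb1 from -0.079 to 0.028. The other members kept their sign there but also moved: Epha4 from 0.049 (without deletion 3) to 0.20 (without wild-type 5), Epha5 from 0.018 (without deletion 2) to 0.18 (without deletion 4), Epha7 from 0.067 (without wild-type 5) to 0.19 (without deletion 4), Efna5 from -0.19 (without wild-type 2) to -0.062 (without wild-type 1), Efna2 from -0.14 to -0.058, Ephb1 from 0.12 to 0.21, Ephb2 from 0.11 to 0.21 and Efnb2 from 0.12 to 0.27. The cause was not tested.

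The count of 9 genes over the whole table was 15 with upper-quartile factors (3 higher, 12 lower), 69 without the filter, 235 in DESeq2, 27 with length and GC trends removed, 0 with the length trend removed (1208 at an unadjusted p under 0.05 in edgeR), 0 under the replicate block (924) and 0 with the block and these trends removed (1116), 22 with the cerebellar covariate, 0 without those 3 libraries (944), and 0 to 357 when 1 library was left out (at least 1262 unadjusted). The replicate numbers share no stated origin: same-numbered deviations correlated between -0.06 and 0.05, and 0 of 4 matched best with their own number. Wild-type 1 and deletion 3 have numbers absent from the other group, so they add nothing to the group difference under the block. Deletion 3 is 1 of the 3 libraries high in cerebellar genes. A value that moved under the block cannot be told apart from the loss of these libraries. The block changed no call of a member.

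With the median transcript length, wild-type levels in CPM per kb were 12.8 for Epha3, 31.8 for Epha4, 22.01 for Epha5, 35.5 for Epha7, 24.8 for Efna5, 80.1 for Ephb1, 87.2 for Ephb2, 17.2 for Efnb1 and 15.6 for Efnb2, since shorter transcripts divide the same counts. With single libraries left out, r ran from 0.04 to 0.76 for Efna2 with Efna5, from -0.47 to -0.21 for Efna2 with En1 and from 0.10 to 0.48 for Efna5 with En2. The relation of Efna5 with En1 turned to r = -0.22 with length and GC trends removed and ran from -0.16 to 0.14 when single libraries were left out, and that of Efna2 with En2 from -0.11 to 0.34. That of Epha4 with Efnb2 fell to 0.74 without the 3 libraries. Precision is set by 5 libraries per group: intervals of the members reached at most 0.41 above and 0.31 below 0 on the log2 scale.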
